A study of Mus musculus with 10 samples.

Results

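Ly6i, Ly6a, Ly6e and Ly6c1 are 4 genes of the Ly6 surface antigen family, taken by symbol from the 16154 genes of the deposited expression table. The table holds messenger RNA levels of AT2 cells, the alveolar epithelium that secretes surfactant, sorted from lungs of C57BL/6 mice aged 8 to 10 weeks. HOILKO, with 5 libraries (replicates 1 to 5), is labelled HOIL-1L -/-, while the series' design text describes floxed HOIL-1L alleles recombined by Cre under the surfactant protein C promoter, which is active in AT2 cells. WT, with 5 libraries (replicates 2 to 6), is wild type. HOIL-1L is encoded by Rbck1 and belongs to LUBAC, the ligase that builds linear ubiquitin chains. Mouse numbers in the titles fall into a first run (HOILKO 1 to 3, WT 2 and 3) and a second run (HOILKO 4 and 5, WT 4 to 6). No treatment is labelled, and the letter N in each title is not explained.

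Ly6 proteins are small, disulfide-rich proteins with finger-shaped loops, held on the outer face of the cell membrane by a glycosylphosphatidylinositol (GPI) anchor. Several are used as surface markers of blood and vascular cells, and a number of them, Ly6a and Ly6e among them, are induced by interferons. Interferon receptors signal through JAK kinases to STAT and IRF factors, which bind promoters of induced genes. Ly6e restricts the entry of some viruses. Ly6a, also called stem cell antigen 1, marks blood stem cells and many progenitor and endothelial cells. Ly6c1 is carried by endothelial cells and some lymphocytes, and Ly6i is a close relative of Ly6a and Ly6c1 whose function is little known.

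All 4 genes were listed, none was at 0 in any library, and all 4 passed the filter on low values (at least 1 per M in at least 5 libraries). Values are normalized counts per M, the deposited values scaled so that the average library sums to 1 M. The members were selected on their measured HOILKO and WT values in these 10 libraries, so this difference is described below without a test. Intervals given for it do not allow for this selection or for libraries left out after the values were seen. They are not read as tests. Whether the mice of a group came from separate litters is not labelled, so the spread given is that between these libraries. In bulk RNA, more cells that express a gene and more RNA per cell cannot be told apart.

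Facts about the libraries bear on every comparison. Rbck1, the targeted gene, stood at 59.3, 29.8, 36.4, 38.0 and 38.8 per M in HOILKO 1 to 5, against 29.7, 56.7, 57.8, 56.1 and 56.6 per M in WT 2 to 6. The libraries labelled HOILKO 1 and WT 2 therefore go against their labels, and the comparisons of groups, sexes and runs and the correlations are also given for the other 8 libraries. By Xist and the Y-linked Ddx3y, HOILKO 2, HOILKO 3 and WT 2 were female (Xist 39.0 to 89.1 per M, Ddx3y at most 0.103) and the other 7 male (Xist 1.44 to 3.16, Ddx3y at least 27.5). All 3 females are of the first run and all 3 have low Rbck1, so sex, run and Rbck1 level cannot be fully told apart. AT2 markers were abundant, their 12 genes summing to 193828 to 222870 per M in HOILKO and 194647 to 231853 per M in WT. Markers of other epithelial cells were present too. The 6 of club or ciliated cells summed to 5023 to 9047 per M in HOILKO and 4702 to 9305 per M in WT. The 7 of alveolar type 1 (AT1) cells summed to 2123 to 2502 per M in HOILKO and 2124 to 2752 per M in WT.

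The 4 genes lie in 93.8 kb of chromosome 15 (mm10, GENCODE release M21). Ly6e (ENSMUSG00000022587) spans 74955051 to 74959905 on the plus strand. On the minus strand follow Ly6i (ENSMUSG00000022586, 74979534 to 74983430), Ly6a (ENSMUSG00000075602, 74994877 to 74998031) and Ly6c1 (ENSMUSG00000079018, 75044018 to 75048830). All are protein coding. Between Psca and Ly6h the annotation holds 24 protein-coding genes, of which 12 were in the table and 10 passed the filter.

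**Figure D1:**
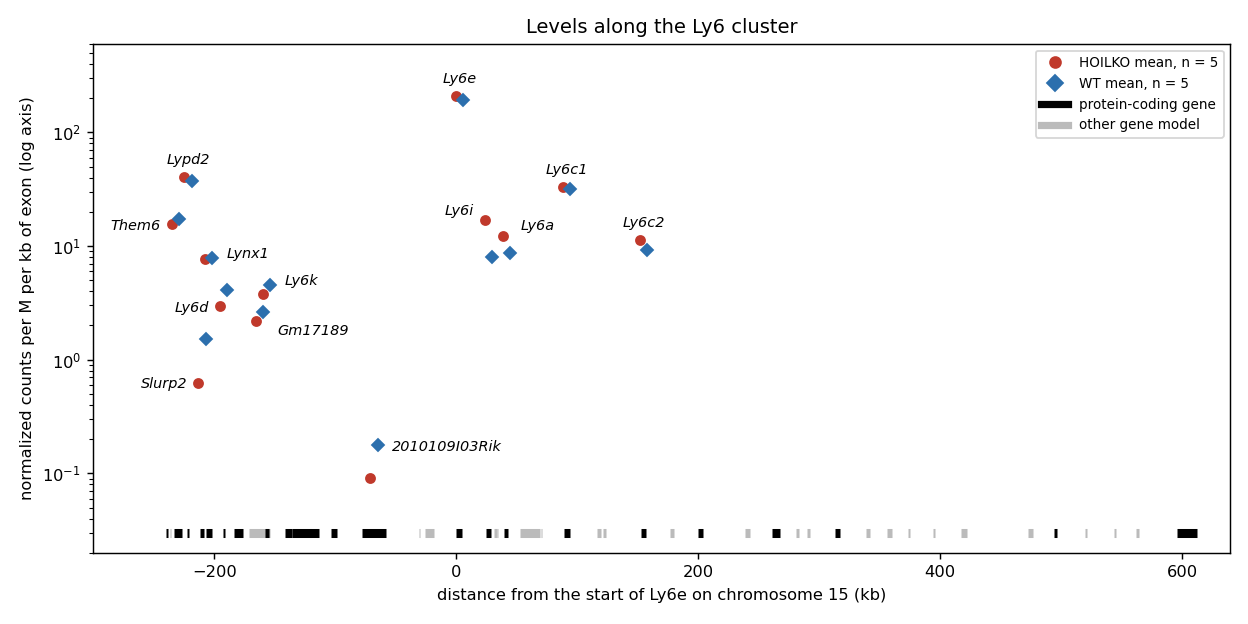
Mean level of each listed gene of the Ly6 cluster in normalized counts per M per kb of exon (vertical log axis) by distance from the start of Ly6e in kb. Circles are HOILKO means and diamonds WT means (n = 5 each), black bars are protein-coding genes, grey bars other gene models; Ly6e stands highest at 210.2 in HOILKO and 193 in WT.

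Upstream sequence is given here from RefSeq (GRCm38.p6) for Ly6c1, the 1 of the 4 members matched in the table used, and for its neighbour and near copy Ly6c2. They are shown because both copies were measured and behaved differently in the libraries described below. Each is on the minus strand and ends at the outermost RefSeq start of its gene, Ly6c1 at chr15:75048921-75049087 and Ly6c2 at chr15:75112067-75112221. Capitals mark the longest run of bases found in both, 15 bases.
Ly6c1: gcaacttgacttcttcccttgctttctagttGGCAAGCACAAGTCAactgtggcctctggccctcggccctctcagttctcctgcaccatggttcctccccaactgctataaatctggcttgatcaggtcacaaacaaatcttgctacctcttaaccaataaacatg
Ly6c2: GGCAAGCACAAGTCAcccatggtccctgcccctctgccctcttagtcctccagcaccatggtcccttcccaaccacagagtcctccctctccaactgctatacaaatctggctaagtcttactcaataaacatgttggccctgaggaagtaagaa
In the 250 bases before the start nearest to the GENCODE start, Ly6c1 held the letters TATAAA once, and Ly6c2 did not hold them. The set used holds 32851 windows of this length, with more than 1 start for some genes and none for others. Of these windows, 12.4% held TATAAA on either strand. The core of the interferon-stimulated response element (GAAA, any 2 bases, GAAA; 2.98% of windows), the STAT letters TTCNNNGAA (7.02%) and the NF-kB letters (GGG, any 2 bases, TTTCC; 1.41%) were in neither window on either strand.

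Ly6e was the most abundant member. It had 640.1, 1031, 807, 653 and 846 per M in HOILKO 1 to 5, against 1028, 629.6, 711, 608 and 667 per M in WT 2 to 6. The groups overlapped, and the highest values were those of HOILKO 2 and WT 2, both female. The means were 795 ± 160.1 in HOILKO and 729 ± 172 in WT (SD, n = 5 each), a log2 difference of 0.13 (95% interval -0.17 to 0.43, limma). With 1 library left out it lay between 0.03 without HOILKO 2 and 0.26 without WT 2. In the 8 libraries the means were 834 ± 155 in HOILKO and 654 ± 45.4 in WT (SD, n = 4 each), a log2 difference of 0.34 (0.11 to 0.56), and with sex as a covariate 0.19 (-0.06 to 0.44). In all 10 libraries with sex as a covariate it was 0.035 (-0.164 to 0.234).

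Ly6a was low. It had 4.63, 26.5, 22.9, 6.68 and 13.7 per M in HOILKO 1 to 5, against 18.9, 7.36, 8.22, 8.94 and 8.99 per M in WT 2 to 6. HOILKO 2, HOILKO 3 and WT 2 were the highest, HOILKO 5 came next, and HOILKO 1 and 4 lay below every WT library. The means were 14.9 ± 9.65 in HOILKO and 10.5 ± 4.74 in WT (SD, n = 5 each), a log2 difference of 0.30 (-0.49 to 1.08). With 1 library left out it was 0.02 without HOILKO 2, 0.08 without HOILKO 3, 0.20 without WT 3, 0.50 without HOILKO 4, 0.52 without WT 2 and 0.62 without HOILKO 1. In the 8 libraries the log2 difference was 0.85 (0.24 to 1.45). With sex as a covariate it was 0.19 (-0.26 to 0.64) in the 8 libraries and 0.01 (-0.42 to 0.43) in all 10.

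Ly6i varied most, 9.83-fold between its highest and lowest library. It had 4.12, 40.5, 30.2, 9.14 and 13.8 per M in HOILKO 1 to 5, against 25.5, 5.33, 4.53, 5.12 and 5.95 per M in WT 2 to 6. Apart from HOILKO 1 and WT 2, every HOILKO library was above every WT library, as was so for 3.85% of all 12946 genes tested. With all 10 libraries 0 of the 4 members were without overlap (0.958% of all genes). The means were 19.6 ± 15.3 in HOILKO and 9.28 ± 9.07 in WT (SD, n = 5 each), a log2 difference of 0.97 (-0.10 to 2.05), which was 0.61 without HOILKO 2. In the 8 libraries the means were 23.4 ± 14.5 in HOILKO and 5.23 ± 0.584 in WT (SD, n = 4 each), a log2 difference of 1.84 (1.17 to 2.51). Leaving out 1 more library put it between 1.51 without HOILKO 2 and 2.20 without HOILKO 4, and with sex as a covariate in the 8 libraries it was 1.04 (0.64 to 1.44). In all 10 libraries with sex as a covariate it was 0.55 (0.10 to 1.01).

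Ly6c1 had 48.5, 62.3, 60.8, 48.0 and 57.8 per M in HOILKO 1 to 5, against 86.9, 42.9, 48.2, 40.5 and 45.5 per M in WT 2 to 6. WT 2 was above all other libraries, and HOILKO 4 lay below WT 4. The means were 55.5 ± 6.81 in HOILKO and 52.8 ± 19.3 in WT (SD, n = 5 each), a log2 difference of 0.12 (-0.22 to 0.46). With 1 library left out it lay between 0.04 without WT 5 and 0.32 without WT 2. In the 8 libraries the log2 difference was 0.36 (0.16 to 0.56).

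**Figure D2:**
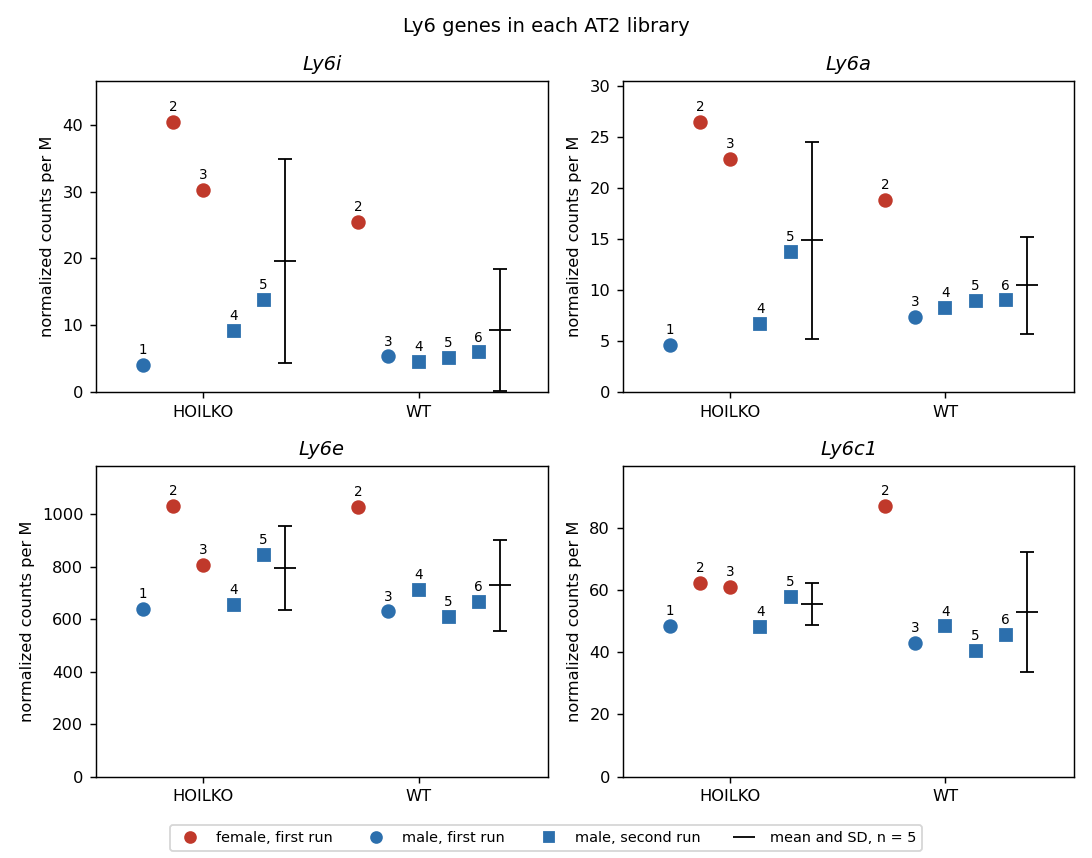
Normalized counts per M of each Ly6 gene in each library, HOILKO left and WT right, with replicate numbers beside the points; circles are the first run, squares the second, red female and blue male, and bars show mean and SD (n = 5). In all 4 panels WT 2 is the highest of the WT libraries, and Ly6i ranges between 4.12 and 40.5 per M.

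The second run holds only males and neither of the libraries that go against their labels. There Ly6i had 9.14 and 13.8 per M in HOILKO, against 4.53 to 5.95 per M in WT, a log2 difference of 1.05 (95% interval 0.59 to 1.52, limma). Groups that did not overlap in this direction were found for 1 of the 4 members, Ly6i, and for 14.8% of all 12946 genes tested, so nothing is read from the lack of overlap itself. Ly6c1 (log2 difference 0.24, -0.03 to 0.50), Ly6e (0.17, -0.07 to 0.42) and Ly6a (0.13, -0.37 to 0.64) overlapped there. In the first run as labelled the differences were 0.55 for Ly6i, 0.26 for Ly6a, 0.01 for Ly6e and -0.10 for Ly6c1. Since HOILKO 1 and WT 2 both belong to the first run, those values set 3 libraries against 2 with 1 doubted library on each side.

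**Figure D3:**
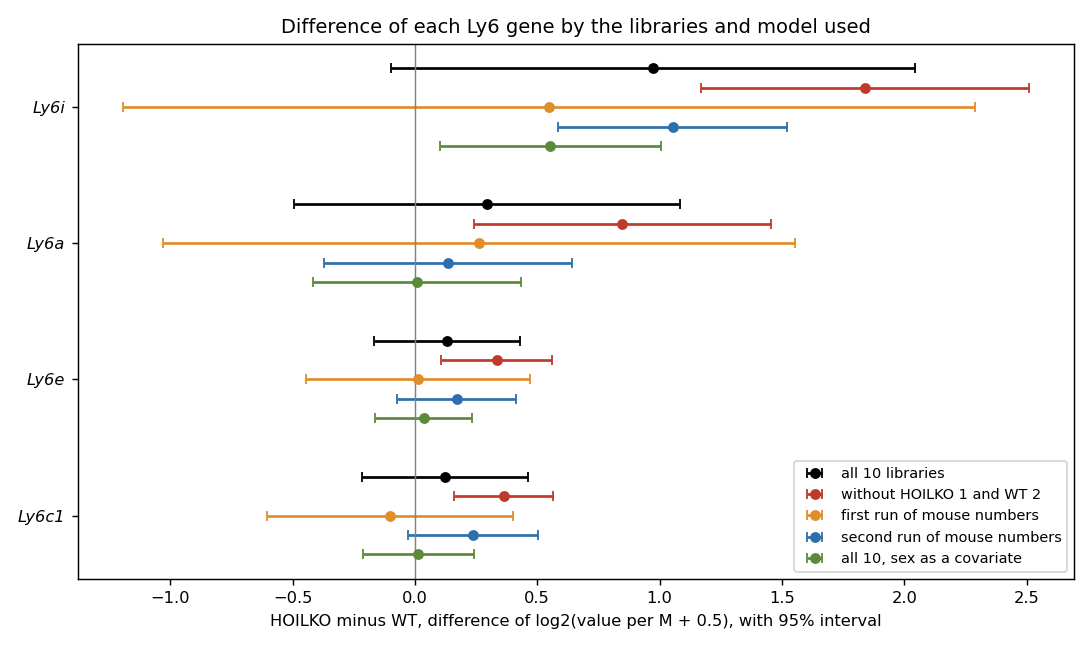
HOILKO minus WT difference of log2(value per M + 0.5) with its 95% interval (limma) for each Ly6 gene, by the libraries and model used. For Ly6i the difference lies between 0.55 in the first run and 1.84 without HOILKO 1 and WT 2, and for Ly6a it is 0.01 with sex as a covariate.

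The female libraries carried the highest values of 3 members without overlap. Ly6i averaged 32.1 ± 7.67 per M in the 3 females and 6.86 ± 3.49 in the 7 males (SD). Ly6a averaged 22.8 ± 3.82 in females and 8.36 ± 2.81 in males, and Ly6c1 70.0 ± 14.7 in females and 47.3 ± 5.51 in males. For Ly6e, at 955 ± 129 in females and 679 ± 80.3 in males, the male HOILKO 5 (846) stood above the female HOILKO 3 (807). Every female library was above every male one for 3 of the 4 members, against 2.03% of all genes tested, and below it for 0 of 4 (1.68%). Without HOILKO 1 and WT 2, both remaining females are HOILKO. Ly6i then stood at 30.2 and 40.5 per M in the 2 females and 4.53 to 13.8 in the 6 males, Ly6a at 22.9 and 26.5 in females and 6.68 to 13.7 in males, and Ly6c1 at 60.8 and 62.3 in females and 40.5 to 57.8 in males, while Ly6e overlapped. The share of all genes without overlap between these 2 females and 6 males was not worked out. Nothing is therefore read from the lack of overlap in these libraries. These groups were set up after the values were seen and are described without a test. Sex was not labelled, and its part in the values was not tested.

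The second against the first run was not the contrast that chose the members, and they were tested on it with genotype as a covariate. It draws on the same 10 libraries whose values chose the members. Its p-values do not allow for that choice, and nothing is concluded from them. All 3 females are of the first run, so run and sex are not told apart in it. Of all genes tested, 0.626% passed a limma adjusted p of 0.05 (0.317% higher and 0.309% lower in the second run), and 0 of the 4 members did. Ly6i averaged 7.72 ± 3.86 per M in the second run and 21.1 ± 15.9 in the first (SD, n = 5 each), a log2 difference of -0.87 ± 0.47 (SE, limma adjusted p = 0.387). For Ly6c1 it was -0.28 ± 0.15 (adjusted p = 0.375), for Ly6e -0.20 ± 0.13 (adjusted p = 0.480) and for Ly6a -0.49 ± 0.36 (adjusted p = 0.546). These values depended on single libraries, WT 2 above all. Without WT 2 the difference was -0.39 for Ly6i, -0.25 for Ly6a, -0.05 for Ly6e and -0.05 for Ly6c1. Without HOILKO 1 that of Ly6i was -1.33, the 1 value past the threshold when single libraries were left out (limma adjusted p = 0.0385), and that of Ly6a was -0.83. Ly6a also stood at -0.28 without HOILKO 2 or HOILKO 4 and -0.75 without WT 3, and Ly6e at -0.13 without HOILKO 2 and -0.32 without WT 3. Ly6c1 stood at -0.43 without WT 3. In the 8 libraries it was -0.93 ± 0.25 for Ly6i (SE, limma adjusted p = 0.160), -0.65 for Ly6a, -0.14 for Ly6e and -0.10 for Ly6c1 (adjusted p = 0.416, 0.717 and 0.765).

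Levels were compared between members per kb of exon. Ly6e stood at 161 to 273 per M per kb across the 10 libraries and Ly6c1 at 24.1 to 51.8, and within each library Ly6e was the highest and Ly6c1 came next. Ly6i (3.56 to 35.0) and Ly6a (3.85 to 22.0) exchanged order between libraries. The ratio of Ly6i to Ly6a within a library, which does not depend on how libraries were scaled, was 0.926, 1.59, 1.38, 1.43 and 1.05 in HOILKO 1 to 5, against 1.41, 0.754, 0.575, 0.597 and 0.690 in WT 2 to 6. It lay above 1 in the 5 libraries with low Rbck1 and below 1 in the 5 with high Rbck1. HOILKO 4 and 5, at 1.43 and 1.05, are male. This split was noticed in the values of members selected on the same libraries, and was not tested. How many other pairs of genes split these libraries alike was not worked out. The line at 1 depends on the exon lengths used, and HOILKO 1 (0.926) and HOILKO 5 (1.05) lie close to it.

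**Figure D4:**
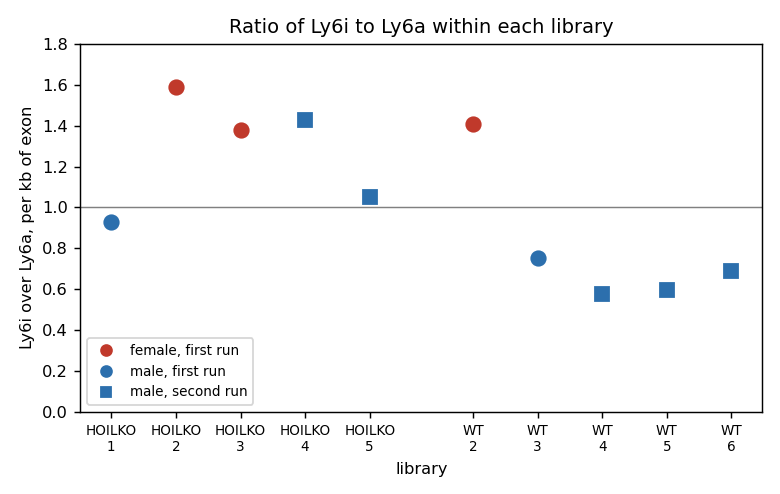
Ratio of Ly6i to Ly6a per kb of exon within each library, HOILKO left and WT right; circles are the first run, squares the second, red female and blue male, and the grey line marks a ratio of 1. HOILKO 2 to 5 and WT 2 lie between 1.05 and 1.59, HOILKO 1 and WT 3 to 6 between 0.575 and 0.926.

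Near-identical copies limit how surely reads can be assigned. Of the distinct 50-base windows in Ly6c1 transcripts, 32.8% also occurred in transcripts of another gene, most often Ly6c2. The share was 19.0% for Ly6a, most often with Ly6c1, 4.76% for Ly6i and 0% for Ly6e. The handling of shared reads and of strand is not given in the sources used here, so the levels of Ly6c1 and Ly6a carry this uncertainty. Ly6c2, the copy best known from monocytes, had 31.3, 34.1, 32.7, 26.3 and 31.4 per M in HOILKO 1 to 5, against 26.8, 27.8, 26.0, 23.9 and 22.6 per M in WT 2 to 6. Its log2 difference, HOILKO minus WT, was 0.29 (0.09 to 0.48) in all 10 libraries (limma adjusted p = 0.359). In the 8 libraries it was 0.30 (0.08 to 0.53, limma adjusted p = 0.238). Ly6c2 did not share the high value of Ly6c1 in WT 2. The ratio of Ly6c1 to Ly6c2 per kb was 5.29 in WT 2 and 2.52 to 3.29 in the other 9 libraries.

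Of 18 other genes listed for the cluster, 7 were in the table and 5 passed the filter, and of 21 Ly6 relatives elsewhere 11 and 6. With all 10 libraries 0 of these 11 tested genes passed limma's adjusted p of 0.05, as did 0 of all 12946 genes (0% called; 1227 at an unadjusted p under 0.05). Without HOILKO 1 and WT 2, 52 genes passed (0.402% of those tested) and 1 of the 11 did. This was Cd59a, a GPI-anchored protein that protects cells from complement lysis. It had 9.15, 15.9, 16.9, 31.9 and 33.8 per M in HOILKO 1 to 5, against 41.1, 8.86, 8.83, 5.91 and 3.58 per M in WT 2 to 6, and rose by 1.78 ± 0.27 (log2, SE) in HOILKO among the 8 libraries (limma adjusted p = 0.00334, 0.00344 to 0.0266 with 1 more library left out). In the second run alone, where 0.317% of genes passed, it rose by 2.41 (limma adjusted p = 0.000131). Its order differed from that of Ly6i, since HOILKO 4 and 5 were above the female HOILKO 2 and 3.

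The other Ly6 relatives that passed the filter did not pass the test among the 8 libraries. Ly6k (log2 difference 0.19) stood at 4.70, 4.51 and 9.04 per M in the female HOILKO 2, HOILKO 3 and WT 2 and at 1.44 to 2.89 per M in males. Lypd1 (0.46) showed the same lack of overlap near the filter. Ly6d (0.09), Lypd2 (0.09), Lynx1 (-0.05), Lypd6b (0.41), Ly6g6d (-0.12), Ly6g6e (-0.06) and Bambi (-0.32), the last a decoy receptor of TGF-beta signalling, did not. Plaur, the urokinase receptor, was below 0.75 per M in every library.

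Interferon-induced genes were examined because Ly6a and Ly6e are counted among such genes in other tissues. Of 30 listed, 20 were tested, and 0 passed with all 10 libraries, where 17 of 20 lay above 0 with a median log2 difference of 0.22 (0.01 over all genes). In the 8 libraries 4 of the 20 rose in HOILKO (0.286% of all genes did), 0 fell (0.116% of all genes did), and the median was 0.60 (0.00 over all genes). Bst2, which tethers budding viruses, had 13.8, 34.4, 27.5, 22.5 and 22.9 per M in HOILKO 1 to 5, against 47.1, 14.9, 19.3, 12.8 and 14.6 per M in WT 2 to 6 (log2 difference in the 8 libraries 0.78 ± 0.15, SE, limma adjusted p = 0.0224). Trim30a rose by 1.08 ± 0.20 (adjusted p = 0.0219), and Lgals3bp, a secreted glycoprotein, by 0.79 ± 0.16 (adjusted p = 0.0371). The other was Ifi27l2a, named after its values were seen (2.21, limma adjusted p = 0.0488). In the second run alone 0 of the 20 passed (0.317% of all genes did). There 16 of the 20 lay above 0, with a median of 0.21 (0.01 over all genes). Ifit1 (-0.93) and Ifit3 (-0.81), also named after their values were seen, were the lowest of the 20 there.

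Apart from Cd59a, these calls depended on which of the 8 libraries were kept. With all 10 libraries Cd59a did not pass either (limma adjusted p = 0.517). The limma adjusted p with 1 more library left out reached 0.106 for Bst2, 0.0855 for Trim30a and 0.144 for Lgals3bp. Over all 5 lists, Ly6 relatives included, 5 genes passed in the 8 libraries. The count was 1 without HOILKO 2 or WT 5, 2 without HOILKO 3 or WT 4, 3 without HOILKO 5, 8 without HOILKO 4 and 1 with sex as a covariate. As with Ly6i, Ly6a and Ly6c1, every female library was above every male library for 15 of the 20 interferon-induced genes, against 2.03% of all genes.

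Of 21 tested interferon receptors and signalling genes, 0 passed with 10 or with 8 libraries (median log2 difference 0.08 and 0.12). Nearest in the 8 libraries were Stat2 (0.45 ± 0.12, SE, limma adjusted p = 0.122), Irf9 (0.42 ± 0.12, adjusted p = 0.158) and Irf2 (0.29 ± 0.09, adjusted p = 0.195), of which Stat2 and Irf9 encode partners in the factor formed after type I interferon. Irf9 had 36.9, 34.8 and 36.9 per M in the female HOILKO 2, HOILKO 3 and WT 2 and 21.6 to 27.0 in males. Of 27 tested genes that build and attach the GPI anchor, 0 passed in either set (medians -0.02 and 0.00), with Piga at 0.21 ± 0.14, Pigo at 0.20 ± 0.10 and Pigp at -0.26 ± 0.13 (log2, SE) in the 8 libraries.

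**Figure D5:**
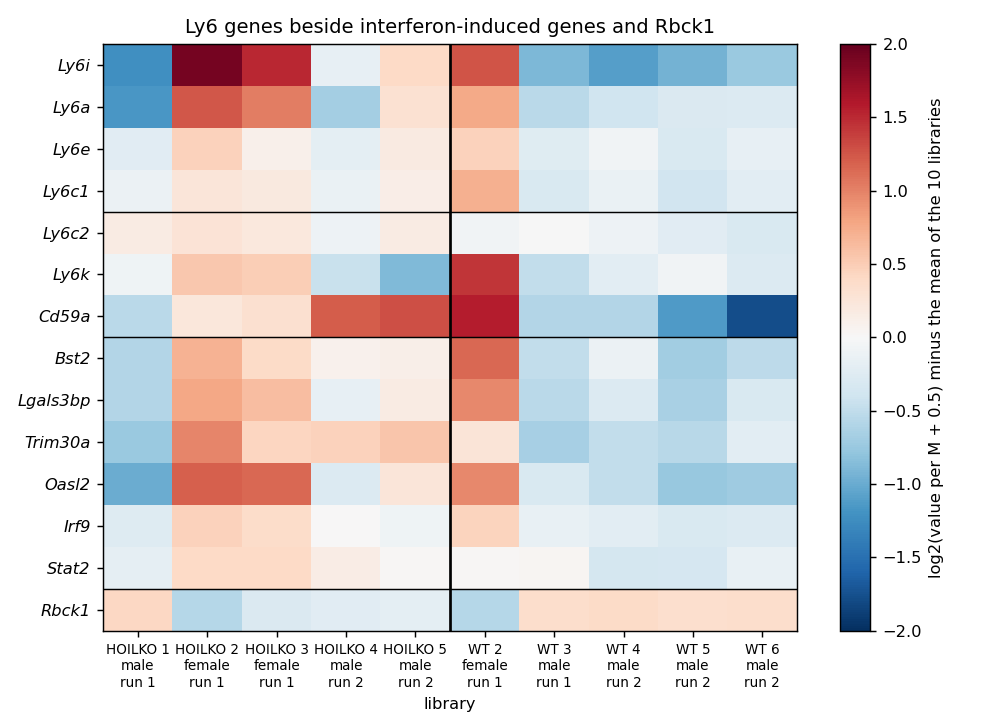
Log2(value per M + 0.5) minus the mean of the 10 libraries for the 4 Ly6 genes, 3 relatives, 6 interferon-related genes and Rbck1, by library (HOILKO left of the black line, WT right). HOILKO 2, HOILKO 3 and WT 2 are above the mean for all 4 Ly6 genes, as is HOILKO 5, with Ly6i at 1.92, 1.51 and 1.26.

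The genes most like each member were taken by Pearson's r of log2 values over the 10 libraries, as a description. The 3 high females weigh on every such value, so r within the 7 males is given too. For Ly6i they were Oasl2, an interferon-induced gene (r = 0.98, within males 0.87), Tnfrsf9, a costimulatory receptor of the TNF receptor family (0.97, within males 0.93), and C1ra, a complement protease (0.96, within males 0.85). For Ly6a they were Muc5ac (a secreted mucin), Pglyrp1 (which binds bacterial cell wall) and Irgm1 (an interferon-induced GTPase), with r between 0.95 and 0.96 and within males between 0.80 and 0.90. For Ly6e they were B3gnt3, Cyp4v3 and the chemokine Cx3cl1 (0.95 to 0.97, within males 0.77 to 0.93). For Ly6c1 they were Tap1, which carries peptides to MHC class I, Lcn2, which binds bacterial siderophores, and Tmc4 (0.95 to 0.97, within males 0.85 to 0.91). Among the members themselves r within the 7 males ran between 0.36 for Ly6a with Ly6c1 and 0.91 for Ly6e with Ly6c1. Without HOILKO 1 and WT 2, r was 0.93 to 0.97 for these likest genes and 0.87 to 0.93 among the members.

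Markers of other cells that carry Ly6 proteins were measured in the same libraries. Of 13 endothelial markers 8 were in the table and 4 passed the filter, and their sum was 133 to 160.4 per M in HOILKO and 130 to 178 per M in WT, most of it Esam. The defining Cdh5 was at 0 in every HOILKO library and at most 0.103 per M in WT. Pecam1 was at 0.0765 to 0.399 per M in HOILKO and 0.355 to 1.97 per M in WT. Eng and Flt1 reached at most 0.651 and 0.837 per M in any library. Other endothelial markers were present in every library. Kdr was at 7.01 to 11.3 per M in HOILKO and 4.88 to 10.7 per M in WT. Egfl7 was at 7.45 to 10.5 per M in HOILKO and 6.57 to 14.0 per M in WT. Tek was at 2.0 to 3.0 per M in HOILKO and 1.3 to 3.1 per M in WT. Of 13 macrophage and monocyte markers 12 were in the table and 7 passed. Their sum was 85.6 to 157 per M in HOILKO and 101 to 156 per M in WT, or 107 to 157 in females and 85.6 to 125 in males. Cd14 made up 46.0 to 94.9 per M of it in HOILKO and 61.1 to 104 per M in WT, and overlapped between the sexes. Cd68, a lysosomal protein of macrophages, did not, at 9.81 to 11.6 per M in females and 3.54 to 7.77 in males (4.76 to 11.6 in HOILKO and 3.54 to 10.02 in WT). The leukocyte marker Ptprc was at 0.185 to 0.877 per M in HOILKO and 0.109 to 2.61 per M in WT. All 10 fibroblast or mesothelial markers were in the table and 4 passed, with a sum of 1.54 to 10.0 per M in HOILKO and 7.45 to 11.8 per M in WT. Of 11 lymphocyte markers 4 were in the table, with a sum of 16.5 to 18.1 per M in HOILKO and 17.6 to 26.0 per M in WT. Most of it was Cd79b, at 16.4 to 18.0 per M in HOILKO and 17.5 to 25.2 per M in WT. Cd3e, Cd3g and Ms4a1 were at most 0.297, 0.725 and 0.107 per M in any library. Of 8 neutrophil markers 3 were in the table, with Ltf at 7.52 to 43.6 per M in HOILKO and 6.31 to 15.8 per M in WT. No marker of these lists passed limma's test with 10 or with 8 libraries. Their part in the Ly6 values was not tested.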

How the data were processed

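The authors deposited normalized counts, a signal that is never negative, for 16154 Ensembl genes in 10 libraries, with column totals of 6.94 to 7.43 M. Per the labels' protocols, libraries of polyA RNA were prepared using a NEBNext Ultra kit. Of software, bcl2fastq 2.17 and edgeR 3.14.0, and the build mm10, appear in the submitters' processing notes. For aligner, counting settings, normalization and read depth, the sources used here give nothing. Columns were assigned by sample title, none was left over, and 16026 IDs had a symbol.

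Dividing by 7.14 M, the mean column total, gave values per M. The 12946 genes reaching 1 per M in 5 or more libraries were tested by limma-trend (limma 3.58.1, R 4.3.3) on log2(value per M + 0.5), two-sided, Benjamini-Hochberg adjusted over all of them, threshold 0.05; this scale understates changes of low genes. Intervals are at 95%. Members, lists and rules were chosen with earlier results of these data known, and the 8-library and sex comparisons were added after seeing the data. Named genes are the members, Rbck1, every tested Ly6 relative, the 3 genes of smallest p in the 8 libraries from each other list, and the 3 most like each member (unnamed gene models left out, H2 genes as 1 pick at most). Alternatives were other pseudocounts, filters and scalings, run or sex as a covariate, a replicate block, each run alone, and leaving out libraries.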

Additional observations from a re-analysis of the deposited data

Results flagged for a closer look

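In the WT and HOILKO groups of 5 libraries, 38 genes named in the text were screened (the members, Rbck1, the Ly6 relatives, the named genes of the other lists and the genes most like each member). A value far from the nearest of the others (Dixon's criterion at 95%, which chance meets in about 1 of 20 groups) was found for 20 of them, each time in WT and each time WT 2. Among Ly6 genes and relatives it was high for Ly6i (25.5 per M), Ly6a (18.9), Ly6e (1028), Ly6c1 (86.9), Ly6k (9.04) and Cd59a (41.1), and it was low for Rbck1 (29.7). Among genes of the interferon lists it was high for Irf9 (36.9), Bst2 (47.1), Ifi27l2a (16.1) and Lgals3bp (100.05). Among the genes most like a member it was high for Oasl2 (15.3), Tnfrsf9 (13.8), C1ra (8.25), Pglyrp1 (9.92), Irgm1 (26.3), B3gnt3 (3.47), Cx3cl1 (32.5), Tap1 (70.6) and Lcn2 (1299). These values come from 1 library, so they are not independent, and the likest genes were chosen for following the members. The named genes of the interferon and GPI lists were chosen by their p in the 8 libraries, without WT 2. How often WT 2 meets the criterion over all genes was not worked out. The count therefore does not set these genes apart from others in WT 2. WT 2 was female and of the first run, as were HOILKO 2 and 3, and its Rbck1 (29.7) stood beside 29.8 and 36.4 per M in those.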

How the results depend on the processing

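The direction of HOILKO minus WT was kept under all 23 alternatives for Ly6i (log2 0.55 to 1.84), Ly6a (0.01 to 0.85) and Ly6e (0.01 to 0.34), and under 22 of 23 for Ly6c1, the exception being the first run alone (-0.10). None of these moved a member by more than 1 SD between libraries; in the 8 libraries, sex as a covariate moved Ly6i (1.84) to 1.04 and Ly6a (0.85) to 0.19. Of all genes, 0 passed with 10 libraries, 259 with the replicate block on replicates 2 to 5, 22 in those libraries without it, 1 with run as a covariate, 41 in the second run, 52 without WT 2 and HOILKO 1, and 0 to 4 with 1 library left out. Correlations of same-numbered libraries were 0.027 to 0.314, and 2 of 4 numbers correlated best with their own. Whether the numbers pair the libraries is not labelled and was not tested. Of list genes, 0 passed, against 4 with the replicate block, 1 in the second run and 5 without both libraries. Between the runs 81 genes passed, 51 with a filter of 5 per M, 50 without genotype, 23 without a filter, 28 without both libraries, and 18 (without WT 2) to 139 (without HOILKO 1) with 1 left out, with 43 without HOILKO 4, 44 without WT 3, 23 without WT 5 and 28 without WT 6. For the 8 libraries the count of 52 became 19 without WT 5, 26 without WT 4, 32 without HOILKO 3, 84 without HOILKO 4, 100 without WT 6 and 27 with sex as a covariate; the causes were not tested. Ly6i and Ly6a were the lowest members, ranking 7465 and 7847 by mean among the 12946 genes tested, and their read numbers are not known. The smallest values above 0 in a library were 0.0641 to 0.125 per M.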
